A study of Mus musculus with 18 samples.

Results

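The genes described here are 10 genes of the circadian clock, namely Per1, Per2, Per3, Bhlhe40, Dbp, Nr1d1, Nr1d2, Clock, Cry1 and Cry2, out of 12393 genes that stand as the only symbol of a probe set on the array. They were chosen by symbol, and every probe set that carries no other symbol was taken, which gave 16 of the 22690 probe sets. Of the 16, 13 passed a filter on low values (a log2 level above 4 in at least 3 arrays), as did 12674 probe sets of the whole table. The other 3, 1417603_at for Per2 and 1421086_at and 1460662_at for Per3, lay between 1.90 and 3.02 in all 18 arrays, near the floor of the table, and were not tested. Every level below is a log2 GCRMA value of 1 probe set, and every change is a difference between such levels.

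Striatal RNA was profiled 1 h after an intraperitoneal injection of 25 mg/kg cocaine, a psychostimulant that blocks the dopamine transporter, or of saline, with 1 array per mouse, to ask how loss of CaMKIV, a kinase that phosphorylates the transcription factor CREB, changes the response to cocaine. The groups were 6 mutant mice given cocaine, 6 control mice given cocaine, 3 mutant mice given saline and 3 control mice given saline, all of them littermates 10 to 20 weeks old that had been caged singly and handled for 5 days. The labels name no allele, Cre driver, sex or hour of the day for any group. The animals are numbered in Roman numerals (6 arrays, cocaine only, 3 per genotype) or in Arabic numerals (12 arrays, 3 per group), without a statement of what the numbering stands for. Groups were taken from the sample titles, since the separate description line named the genotype and treatment of the title in 0 of 18 samples.

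The clock is a loop of transcription and feedback that runs in most cells. CLOCK, or its relative NPAS2, pairs with BMAL1 (gene Arntl) and activates genes through E-boxes, among them the Per, Cry, Nr1d, Dbp and Bhlhe40 genes. PER and CRY proteins then inhibit CLOCK and BMAL1, Bhlhe40 (DEC1) competes at E-boxes, and the nuclear receptors encoded by Nr1d1 and Nr1d2 (REV-ERB alpha and beta) repress Arntl through ROR elements. Dbp encodes an activator that binds D-boxes. Per1 has a further role as a gene that stimuli induce within an hour, through CREB at cAMP response elements, and in the striatum clock genes are also studied for their part in responses to psychostimulants.

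The arrays carried the marks of striatum, since the 6 measured medium spiny neuron markers had a mean level between 12.36 and 12.70 on every array. The 2 tested cortical glutamatergic markers had an array mean between 7.30 and 8.71, and the 3 tested thalamic or septal markers between 5.45 and 6.14. Signal from such neurons was thus present and, for the cortical markers, varied between arrays. All 5 markers of the suprachiasmatic nucleus on the array, the brain's master clock, failed the filter, with levels between 2.14 and 3.44. Camk4 itself (1426167_a_at) ran between 6.85 and 7.69 in mutant cocaine arrays against 7.52 and 7.76 in control cocaine arrays, and between 7.14 and 7.47 in mutant saline arrays against 7.59 and 7.72 in control saline arrays. Mutant cocaine replicate 6 is the 1 mutant array inside the control range, and the difference was -0.39 ± 0.10 after cocaine and -0.35 ± 0.15 after saline (log2, SE), neither past the threshold in limma (adjusted p = 0.427 and 1.00). Since the labels do not say which exons are lost, the Camk4 level does not check them. Mutant cocaine replicate 5 stood apart from the other arrays, with a mean correlation of 0.966 with them against 0.976 to 0.990 for the others and a difference between the 3′ and 5′ actin probe sets (3′ minus 5′) of 3.59 against 1.57 to 2.55, a measure that is larger where RNA is shorter. For many results that rest on this array, the value without it is given as well.

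Cocaine raised Per1 and Bhlhe40, and no other clock gene passed the test. Averaged over genotypes, Bhlhe40 rose 2.02-fold and Per1 1.82-fold. Over all 13 probe sets tested, 2 were higher and 0 lower, and the background was 28 of 12674 probe sets called (0.221%), all of them higher. The median change was 0.04 over the 13 and 0.00 over all probe sets. In tissue RNA, a change in the share of a cell type and a change in RNA per cell cannot be told apart.

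Per1 encodes a repressor of the loop and is an acutely inducible member of it. Its level (1449851_at) had a lowest, median and highest value of 8.98, 9.34 and 9.68 in the mutant cocaine arrays and of 8.97, 9.42 and 9.97 in the control cocaine arrays. It was 8.63, 8.63 and 8.48 in the mutant saline arrays and 8.91, 8.44 and 8.58 in the control saline arrays. The lowest cocaine array, at 8.97, thus lay just above the highest saline array, at 8.91, and the groups did not overlap. Averaged over genotypes the difference was 0.87 ± 0.15 (SE), with a 95% interval of 0.55 to 1.19 (limma, adjusted p = 0.0168). The group means ranked as control cocaine (9.49 ± 0.37, SD, n = 6), mutant cocaine (9.29 ± 0.25, n = 6), control saline (8.64 ± 0.24, n = 3) and mutant saline (8.58 ± 0.09, n = 3). Neighbours in this order within a treatment differed by less than their spread. The Per1 call rests on few animals and on the estimate of the spread. It missed the threshold of 0.05 without mutant saline replicate 3 (0.84, adjusted p = 0.0553 in limma), control cocaine replicate 2 (0.80, 0.0672), control saline replicate 2 (0.82, 0.0622) or control saline replicate 3 (0.85, 0.0589). With all arrays, the same change of 0.87 missed it with blocks of consecutive animal numbers (adjusted p = 0.0907 in limma) and with an ordinary linear model (0.0713).

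The Per1 gene lies on chromosome 11 (chr11:69095108-69109965, GRCm38), and 2 of its RefSeq start sites have promoter sequence in the table used. They are printed with that of Cry1 (gene at chr10:85131700-85185054), the gene whose level followed that of a second Per gene between animals, because the motifs through which clock factors and CREB bind can be read in them. Each line gives the 250 bases before a start site, 5′ to 3′ on the gene's strand (RefSeq, GRCm38.p6), with matches to the motifs searched in capitals.
Per1, first start site, chr11:69098699-69098948, plus strand: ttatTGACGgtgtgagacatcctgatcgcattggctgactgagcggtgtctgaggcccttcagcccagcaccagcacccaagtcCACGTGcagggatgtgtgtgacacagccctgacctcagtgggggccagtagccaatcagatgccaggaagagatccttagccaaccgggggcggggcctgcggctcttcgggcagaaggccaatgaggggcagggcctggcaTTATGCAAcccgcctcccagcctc
Per1, second start site, chr11:69099902-69100151, plus strand: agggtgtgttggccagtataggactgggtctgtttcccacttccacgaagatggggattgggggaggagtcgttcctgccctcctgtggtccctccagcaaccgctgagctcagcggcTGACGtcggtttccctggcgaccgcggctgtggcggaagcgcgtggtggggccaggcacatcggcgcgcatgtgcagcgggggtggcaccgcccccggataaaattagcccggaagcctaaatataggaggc
Cry1, chr10:85185055-85185304, minus strand: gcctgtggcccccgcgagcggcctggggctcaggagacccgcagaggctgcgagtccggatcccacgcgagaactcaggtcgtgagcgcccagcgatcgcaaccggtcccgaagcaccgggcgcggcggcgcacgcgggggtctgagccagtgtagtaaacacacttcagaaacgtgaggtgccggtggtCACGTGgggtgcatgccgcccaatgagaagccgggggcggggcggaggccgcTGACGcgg
Before the first Per1 start site there is an E-box, CACGTG, that begins at base -166, the first 5 bases of the cAMP response element, TGACG, here called the short element, at -246 and a D-box, TTATGNAA, at -24. Before the second there is a short element at -132. Cry1 has an E-box at -60 and a short element at -8. Both strands were searched in windows that reach from 250 bases before to 50 bases after a start site, and the short element is part of the full element TGACGTCA. Of the 10 genes, 8 matched the RefSeq table, with 11 windows. Per2 and Bhlhe40 had no window and were not searched. Per3 held D-boxes at -205 and -158 and a ROR element core, TNGGTCA, at -118, and Cry2 a short element at -209 and a ROR element core at -133. No match to these motifs, to the glucocorticoid response element or to the CArG box of serum response factor lay in the windows of Dbp, Nr1d1, Nr1d2 and Clock. Among all 32851 windows, 7.15% held the E-box, 20.8% the short and 1.79% the full cAMP response element, 3.38% the D-box, 11.0% the ROR element core, 0.475% the glucocorticoid response element and 1.63% the CArG box.

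Bhlhe40, a basic helix-loop-helix repressor (gene at chr6:108660629-108666925), showed the larger and steadier change of the pair. Its level (1418025_at) had a lowest, median and highest value of 9.17, 9.47 and 9.91 in the mutant cocaine arrays and of 9.65, 9.99 and 10.11 in the control cocaine arrays. It was 8.65, 8.45 and 8.35 in the mutant saline arrays and 8.91, 8.31 and 8.75 in the control saline arrays. Every cocaine array lay above every saline array. The difference averaged over genotypes was 1.01 ± 0.12 (SE), with a 95% interval of 0.76 to 1.26 (limma, adjusted p = 0.00055). It stayed past the threshold when any single array was left out. The group means ranked as control cocaine (9.93 ± 0.20, SD, n = 6), mutant cocaine (9.53 ± 0.30, n = 6), control saline (8.66 ± 0.31, n = 3) and mutant saline (8.48 ± 0.16, n = 3). The ranges of the 2 saline groups overlapped, and their means differed by more than the mutant SD and by less than the control SD.

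**Figure D1:**
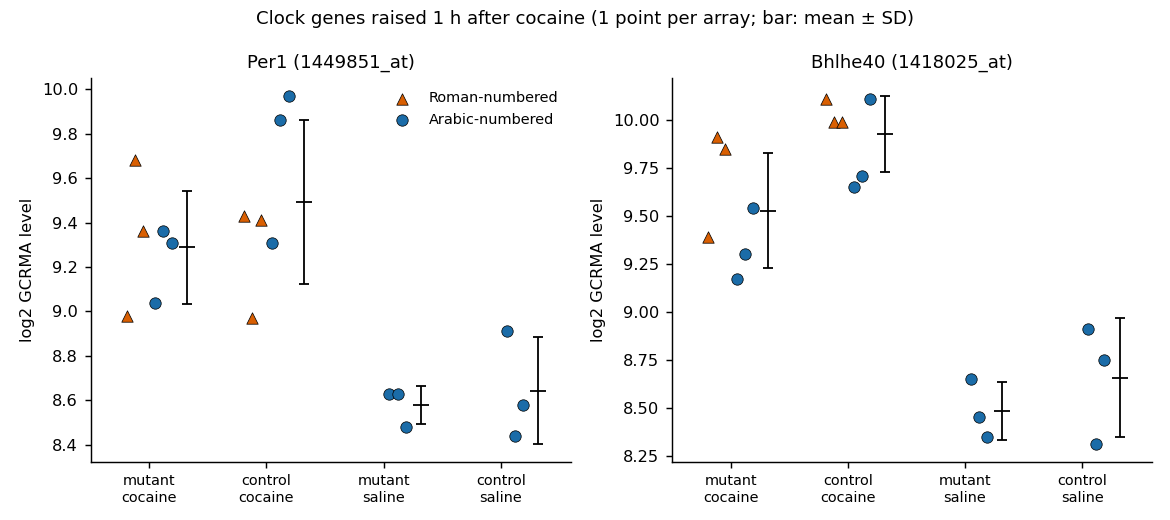
Log2 GCRMA level of Per1 (left) and Bhlhe40 (right) in each array, by genotype and treatment, with triangles for Roman-numbered and circles for Arabic-numbered animals and a bar for the mean ± SD of each group. All 12 cocaine arrays lie above all 6 saline arrays for both genes, by a narrow margin for Per1 (8.97 against 8.91).

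Complete separation of the 12 cocaine arrays from the 6 saline arrays, upward, was found for these 2 of the 13 probe sets and for 52 of all 12674 (0.41%). Separation with the 6 Roman-numbered or the 6 Arabic-numbered cocaine arrays alone follows from this, as the saline arrays are the same, and adds no support. Over all probe sets, 195 (1.54%) separated upward with the Roman-numbered cocaine arrays and 80 (0.631%) with the Arabic-numbered ones. All saline animals are Arabic-numbered, so the averaged difference is set by the Arabic-numbered arrays. Within those 12 arrays alone it was 1.01 for Bhlhe40 (limma, adjusted p = 0.0016) and 0.87 for Per1 (0.0041). The Roman-numbered animals have no saline arrays of their own.

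By genotype, the cocaine response of Bhlhe40 was 0.90 ± 0.16 in mutant mice (log2, SE; limma, adjusted p = 0.0527) and 1.13 ± 0.16 in control mice (0.0113). For Per1 it was 0.80 ± 0.20 in mutant mice (0.381) and 0.94 ± 0.20 in control mice (0.146). Of the 13 probe sets, 0 were called in mutant mice, against 6 of 12674 in all (0.0473%), and an unadjusted p under 0.05 was found for 4 of the 13 and for 881 of all (6.95%). In control mice 1 of the 13 was called, Bhlhe40, against 14 of 12674 in all (0.11%). These calls turn on single arrays. The Bhlhe40 response in mutant mice passed without mutant cocaine replicate 1 (adjusted p = 0.0222 in limma), 4 (0.0462) or 5 (0.0326), control cocaine replicate 3 (0.0360) or control saline replicate 2 (0.0388). In control mice it no longer passed without control cocaine replicate 2 (0.0559), control saline replicate 2 (0.0834) or control saline replicate 3 (0.0896), nor with blocks of consecutive animal numbers (0.0648) or an ordinary linear model (0.0741), and Per1 passed there without mutant cocaine replicate 5 (0.0210).

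Whether the mutation changed the response was tested by the genotype by cocaine interaction, the mutant minus the control response. It was -0.23 ± 0.20 for Bhlhe40, with a 95% interval of -0.66 to 0.20, and -0.14 ± 0.26 for Per1, with an interval of -0.69 to 0.41 (SE; limma, adjusted p = 0.992 for both). No clock gene passed, and neither did any other of the 12674 probe sets (0.0%), while an unadjusted p under 0.05 was found for 1 of the 13 and for 340 of all (2.68%). The 1 was Clock 1418659_at at -0.34 ± 0.15 (adjusted p = 0.992), which was -0.27 without mutant cocaine replicate 5. A response lost entirely in mutants lies outside these intervals for Bhlhe40 and Per1, since the response in control mice was 1.13 and 0.94, while smaller differences in either direction lie inside them.

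After cocaine, the largest mutant minus control difference among the brighter probe sets was that of Bhlhe40, at -0.40 ± 0.12 (SE; unadjusted p = 0.0036, adjusted p = 0.427 in limma). None of the 13 probe sets was called after cocaine, nor any of the 12674 (0.0%). An unadjusted p under 0.05 was found for 3 of the 13, Bhlhe40 and both Nr1d2 probe sets, all lower in mutants, and for 1470 of all probe sets (11.6%). Of the Nr1d2 probe sets, 1416959_at lay near the floor and passed the filter only through Roman-numbered arrays, so it adds no separate evidence for Nr1d2. The other, 1416958_at, was at -0.18 ± 0.07 (SE; adjusted p = 0.427 in limma). Over 36 alternatives, among them the fit without mutant cocaine replicate 5, its difference ran from -0.30 to -0.07. The median difference was -0.15 over the 13 and 0.01 over all. In the Roman-numbered arrays alone Bhlhe40 differed by -0.32 and in the Arabic-numbered arrays alone by -0.49, so both series showed a lower mutant mean. For Per1 the difference was 0.07 in the Roman-numbered and -0.48 in the Arabic-numbered arrays, with opposite signs, and -0.20 ± 0.15 in all (adjusted p = 0.534 in limma). Leaving out mutant cocaine replicate 6, the array whose Camk4 level was in the control range, gave -0.44 for Bhlhe40.

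In the Roman-numbered animals, mutant and control levels after cocaine were apart for some clock genes. Of the 13 probe sets, 5 did not overlap between the 3 Roman-numbered mutant and the 3 Roman-numbered control cocaine arrays, against 1908 of 12674 in all (15.1%). The second mutant value given for each probe set below is that of mutant cocaine replicate 5, and the count without this array was not made. Bhlhe40 was lower in mutants, with 9.39, 9.91 and 9.85 against 10.11, 9.99 and 9.99 in controls. Dbp 1418174_at was lower, with 10.66, 10.98 and 10.89 in mutants against 11.25, 11.15 and 11.22 in controls. The brighter Dbp probe set, 1438211_s_at, overlapped, with 12.70, 13.47 and 13.19 in mutants against 13.22, 13.24 and 13.42 in controls. Nr1d2 1416958_at was lower, with 11.75, 11.38 and 11.73 in mutants against 11.93, 11.90 and 11.92 in controls. Per3 was the 1 that was higher, with 6.15, 6.53 and 6.17 in mutants against 6.07, 6.08 and 5.92 in controls. In the Arabic-numbered cocaine arrays the mutant mean was instead higher for Dbp 1418174_at (11.038 against 10.993) and lower for Per3 (6.389 against 6.536). It was lower there too for Bhlhe40 (9.338 against 9.825) and Nr1d2 1416958_at (11.621 against 11.690). The fifth was the dim probe set of Nr1d2 described below, so the same gene is counted by both of its probe sets. It passed the filter only through Roman-numbered arrays, where it was highest in controls, so its separation here carries no weight. Over all 6 mutant and 6 control cocaine arrays, 0 of the 13 were free of overlap (23 of 12674 in all, 0.181%).

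After saline, 0 of the 13 probe sets were called between mutant and control mice, as were 0 of 12674 in all (0.0%). An unadjusted p under 0.05 was found for 0 of the 13 and for 350 of all (2.76%). Per2 had the largest difference of the brighter probe sets, -0.37 ± 0.25 with a 95% interval of -0.89 to 0.15 (SE; adjusted p = 1.00 in limma).

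**Figure D2:**
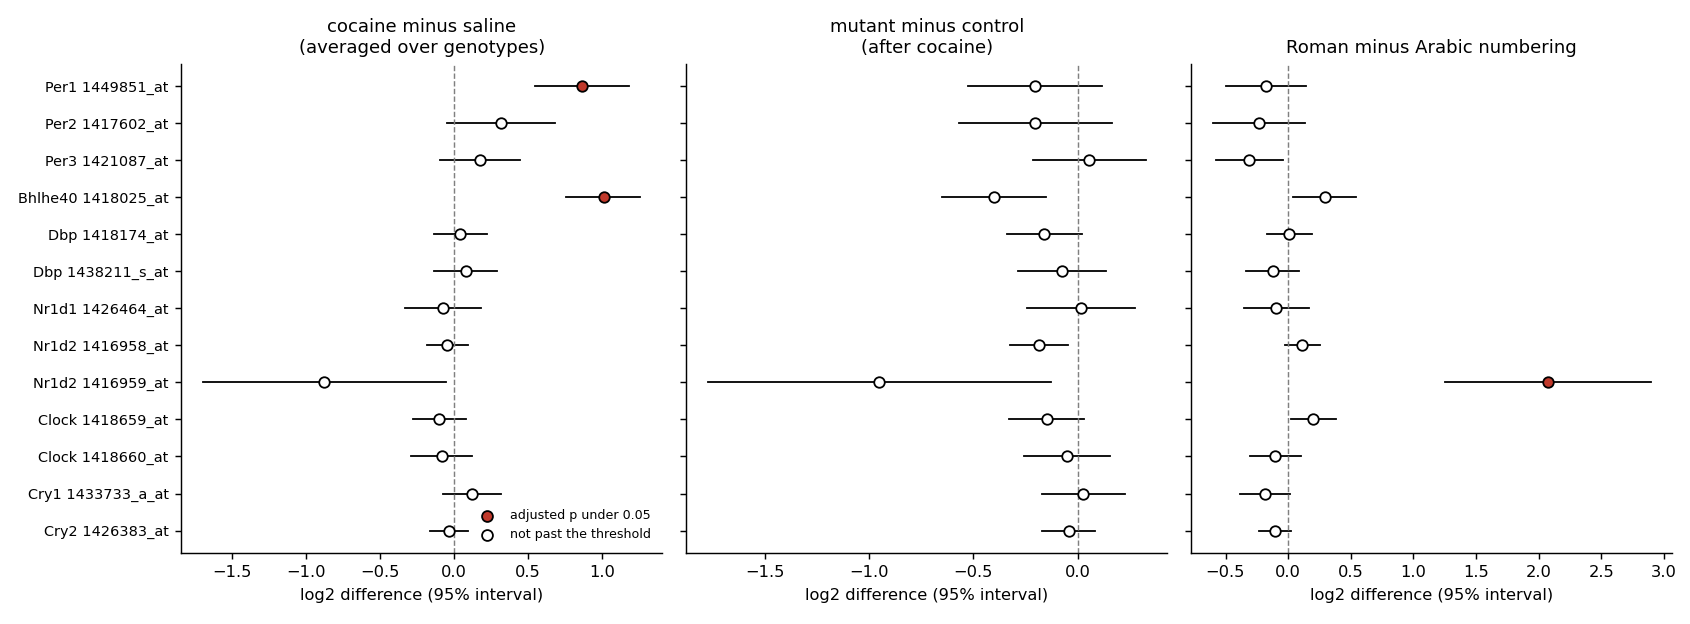
Differences of the 13 tested probe sets in log2 units, with 95% intervals, for cocaine minus saline, mutant minus control after cocaine, and Roman-numbered minus Arabic-numbered arrays, with filled points for an adjusted p under 0.05. Per1 and Bhlhe40 are the 2 filled points for cocaine, none is filled for genotype, and Nr1d2 1416959_at is filled for numbering.

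The other Per genes did not pass the test after cocaine. Per2, a repressor of the core loop, had a lowest, median and highest level (1417602_at) of 6.52, 6.91 and 7.12 in the mutant cocaine arrays and of 6.56, 7.14 and 7.50 in the control cocaine arrays. The saline arrays had 6.60, 6.19 and 7.02 in mutants and 7.34, 7.11 and 6.47 in controls. The 4 groups overlapped, and cocaine minus saline was 0.32 ± 0.17, with a 95% interval of -0.05 to 0.69 (SE; adjusted p = 0.859 in limma), so that a change of the size seen for Per1 lies outside the interval. Per3, which is less needed for the core loop than the other Per genes, ran from 5.92 to 6.78 (1421087_at) over all arrays, with a cocaine minus saline difference of 0.18 ± 0.13 (-0.09 to 0.44, adjusted p = 0.859).

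The Cry genes, the partners of the Per proteins, moved little. Cry1 (1433733_a_at) ran from 8.48 to 9.08 and Cry2 (1426383_at) from 9.68 to 10.13 over all arrays. Cocaine minus saline was 0.12 ± 0.09 for Cry1 (-0.08 to 0.32, adjusted p = 0.859) and -0.03 ± 0.06 for Cry2 (-0.16 to 0.10, adjusted p = 0.933 in limma). The activator Clock was measured by a pair of probe sets, at -0.10 ± 0.09 (1418659_at) and -0.08 ± 0.10 (1418660_at). Their 95% intervals were -0.28 to 0.08 and -0.29 to 0.12, and neither passed (adjusted p = 0.871 and 0.897 in limma).

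Dbp and Nr1d1 are direct targets of CLOCK and BMAL1 with strong daily rhythms. Dbp gave 0.08 ± 0.10 with 1438211_s_at (-0.13 to 0.29) and 0.04 ± 0.08 with 1418174_at (-0.14 to 0.22). Nr1d1 (1426464_at) gave -0.07 ± 0.12 (-0.33 to 0.18). Neither passed, with adjusted p values in limma of 0.906 and 0.941 for Dbp and 0.922 for Nr1d1. Nr1d1 ran from 5.66 to 6.43 and Dbp 1438211_s_at from 12.70 to 13.47, and in both the lowest and the highest value of all 18 arrays came from mutant cocaine arrays. The highest Dbp value was that of mutant cocaine replicate 5. Without this array the highest was 13.42, reached in mutant and in control cocaine arrays.

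**Figure D3:**
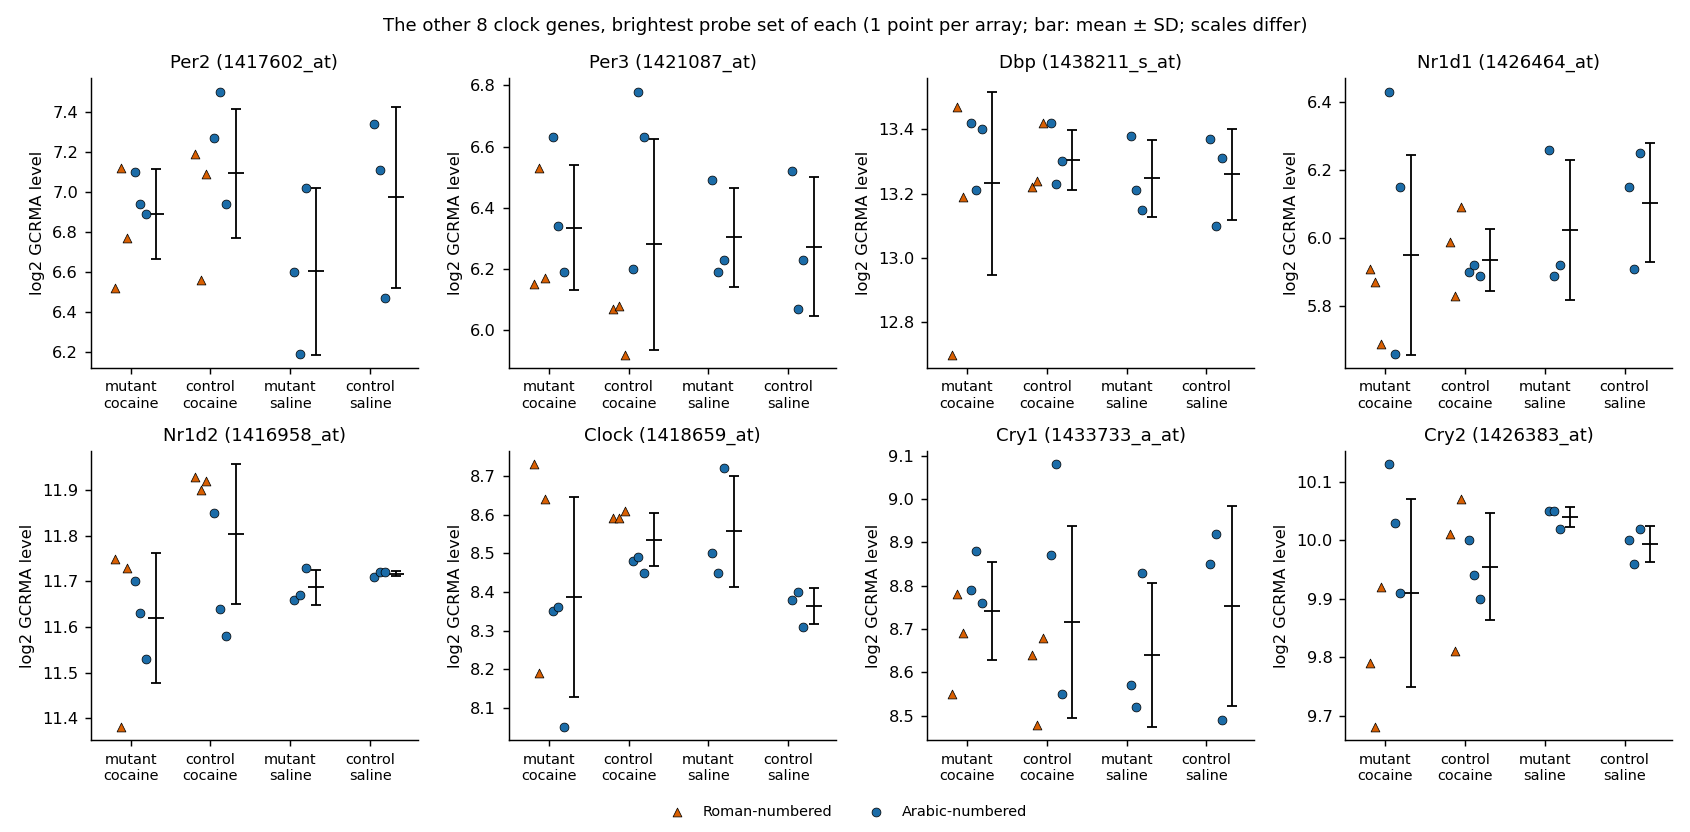
Log2 GCRMA level in each array of the other 8 clock genes, each by its probe set of highest mean level, by genotype and treatment, with the mean ± SD of each group. Cocaine and saline arrays overlap for all 8 genes, and the vertical scales differ.

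The 2 probe sets of Nr1d2 did not move alike. The bright one (1416958_at) ran from 11.38 to 11.93 over all arrays, with a cocaine minus saline difference of -0.05 ± 0.07 (-0.18 to 0.09). In the Roman-numbered arrays it was 11.75, 11.38 and 11.73 in mutants and 11.93, 11.90 and 11.92 in controls, and in the Arabic-numbered cocaine arrays it was 11.70, 11.63 and 11.53 in mutants and 11.85, 11.64 and 11.58 in controls. The dim one (1416959_at) was 4.56, 2.10 and 4.03 in Roman-numbered mutants and 6.01, 4.82 and 5.13 in Roman-numbered controls. In the Arabic-numbered cocaine arrays it was 2.19, 2.62 and 2.09 in mutants and 3.10, 2.20 and 2.03 in controls, and in the saline arrays it lay between 2.78 and 3.49. It exceeded the filter level of 4 in 5 arrays, all Roman-numbered, so it entered the test only through them and had to differ.

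Between the series, Roman minus Arabic, 1 of the 13 probe sets was called, the dim Nr1d2 probe set at 2.07 ± 0.39 (SE; adjusted p = 0.0094 in limma), against 781 of 12674 in all (6.16%). The bright Nr1d2 probe set gave 0.11 ± 0.07 (adjusted p = 0.298), a difference of another size from the same gene. Bhlhe40 was at 0.29 ± 0.12 (0.143), Clock 1418659_at at 0.20 ± 0.09 (0.164) and Per3 at -0.31 ± 0.13 (0.149), none of them past the threshold. Without mutant cocaine replicate 5 the count was 4, since Per3 (-0.39, 0.0224), Clock 1418659_at (0.27, 0.0124) and the bright Nr1d2 probe set (0.18, 0.0070) passed as well. In that setting 3783 of all 12674 probe sets were called (29.8%), so the share of clock probe sets called was near the background. The actin 3′ minus 5′ difference ran from 1.57 to 1.91 in the Roman-numbered arrays other than that one and from 1.89 to 2.55 in the Arabic-numbered arrays, ranges that overlap only at their ends. With this difference as a covariate and all arrays kept, the count of clock probe sets called was 1, against 341 higher and 573 lower over all probe sets. With the covariate and without mutant cocaine replicate 5 it was 1 as well, against 335 higher and 61 lower over all. Why the counts moved was not tested.

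**Figure D4:**
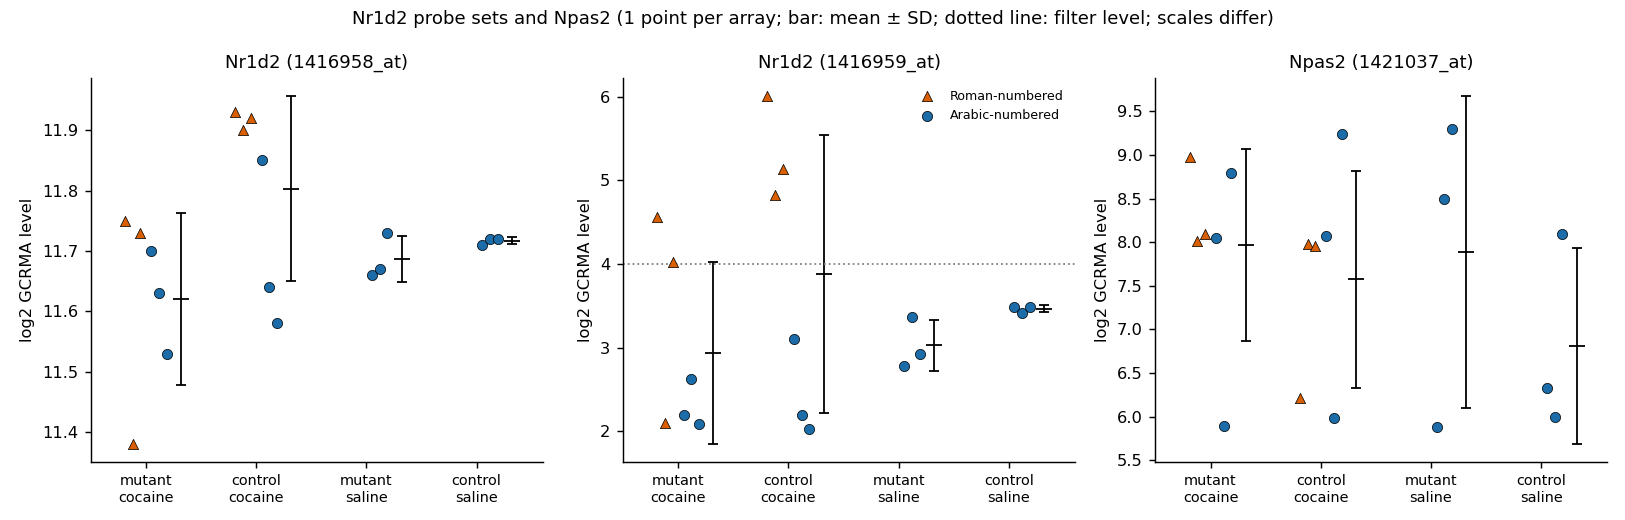
Log2 GCRMA level in each array of the bright and the dim Nr1d2 probe set and of Npas2, by genotype and treatment, with the mean ± SD of each group and a dotted line at the filter level of 4. The dim Nr1d2 probe set passes 4 in 5 Roman-numbered arrays and in no Arabic-numbered array, and Npas2 falls into a lower range (5.88 to 6.33) and an upper range (7.96 to 9.30) in each group.

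Beyond their response to cocaine, the genes could be compared by how they vary between animals of the same group and series. For this, the mean of each of the 6 sets of 3 arrays that share group and series was subtracted, and a gene with several probe sets was represented by the one with the highest mean. The spread between animals was largest for Per2, at 0.335 (SD, log2), followed by Per1 (0.263), Bhlhe40 (0.225), Per3 (0.213) and Nr1d1 (0.207). It was 0.192 for Dbp, 0.173 for Cry1, 0.151 for Clock, 0.110 for Nr1d2 and 0.089 for Cry2. Among all tested probe sets, the Per2 spread stood at the 87.8 percentile and that of Cry2 at the 15.1 percentile. Of the 45 pairs of genes, 1 passed a two-sided exact permutation test within the sets, adjusted over the 45 pairs.

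That pair was Per2 and Cry1, a Per and a Cry gene, neither of which passed the cocaine test. Cry1 was 8.79, 8.88, 8.76, 8.55, 8.78 and 8.69 in mutant cocaine replicates 1 to 6, where Per2 was 7.10, 6.94, 6.89, 6.52, 7.12 and 6.77. In control cocaine replicates 1 to 6, Cry1 was 8.87, 9.08, 8.55, 8.64, 8.48 and 8.68 and Per2 was 7.27, 7.50, 6.94, 7.19, 6.56 and 7.09. In the saline arrays Cry1 was 8.57, 8.52 and 8.83 in mutants and 8.85, 8.92 and 8.49 in controls, beside the Per2 levels given above. In each of the 6 sets the array lowest in Per2 was also the lowest in Cry1, and the deviations of the 2 genes had the same sign in 15 of 18 arrays.

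Over the 18 arrays the Pearson correlation of the Per2 and Cry1 deviations was 0.866 (exact permutation p = 0.000514, adjusted p = 0.0232), and Spearman's rho was 0.882 (exact permutation, adjusted p = 0.0376). It was 0.950 in the Roman-numbered arrays alone, 0.867 in the Arabic-numbered arrays alone and 0.829 without the 2 arrays farthest from the median in Per2. With mutant cocaine replicate 5 left out it was 0.861 and no longer passed (exact permutation, adjusted p = 0.0666). With the actin difference regressed out, an alternative chosen after seeing the data, it was 0.868 and did not pass either (exact permutation, adjusted p = 0.0685). Of the 11748 tested probe sets with 1 symbol other than Per2, 1 (0.009%) had a higher correlation with Per2 than Cry1 had. The size of the correlation was steady, between 0.813 and 0.885 with any single array left out. The adjusted p was not, since it reached 0.081 without control saline replicate 3 and lay above 0.05 in 10 of the 18 cases, with fewer relabellings to draw on in each.

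**Figure D5:**
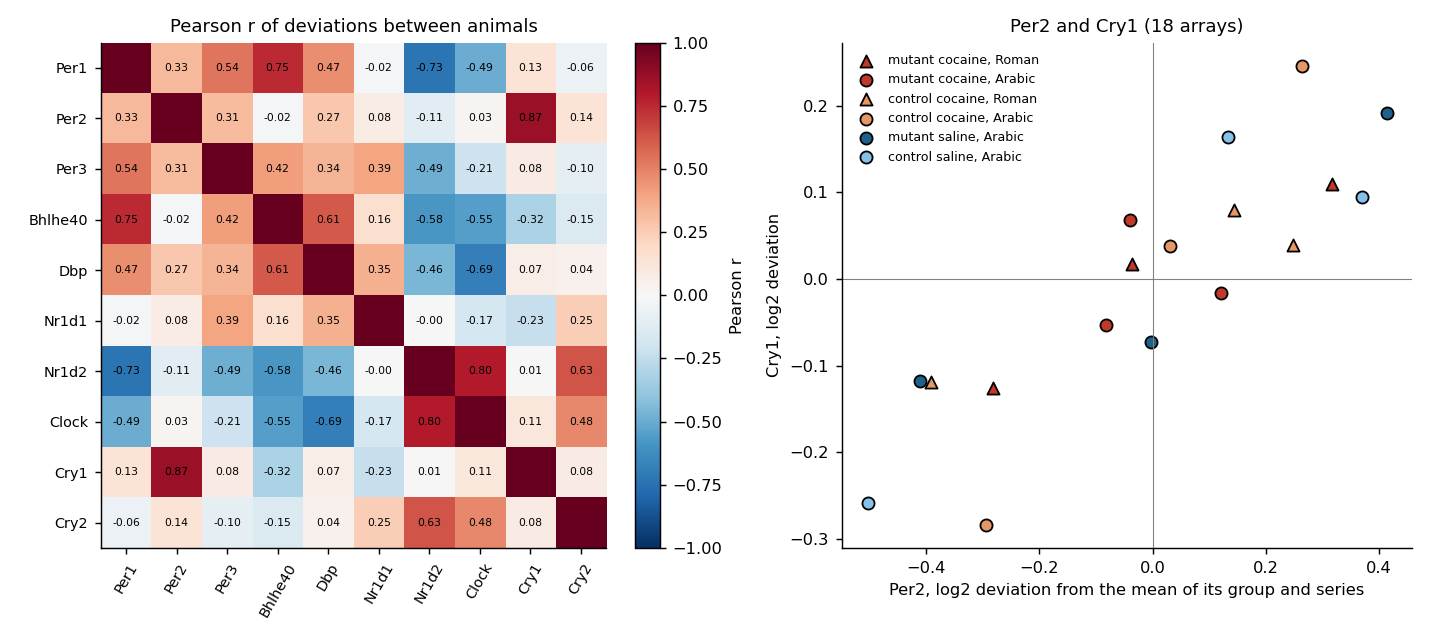
Left, Pearson correlation over 18 arrays between the deviations of each pair of clock genes from the mean of their group and series. Right, the Cry1 deviation of each array against its Per2 deviation in log2 units, with colour for group and shape for numbering. The points for Per2 and Cry1 rise together (r = 0.866), and the other pairs did not pass the adjusted exact permutation test.

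The induced genes Per1 and Bhlhe40 had a correlation of 0.745 between animals, which did not pass after adjustment (exact permutation, adjusted p = 0.118). Without mutant cocaine replicate 5 it was 0.717 (exact permutation, adjusted p = 0.186). Per1 ran against Nr1d2 with a correlation of -0.733 (exact permutation, adjusted p = 0.118), and of -0.669 without that array (0.186). Between Per1 and Per2 it was 0.327, and between Bhlhe40 and Per2 -0.022, with adjusted p values of 0.591 and 0.993 in the exact permutation test. Nr1d2 and Clock correlated with 0.796, a value that was 0.492 without mutant cocaine replicate 5 (exact permutation, adjusted p = 0.118 with it and 0.200 without it). The deviations of Nr1d2 and Clock correlated with the actin 3′ minus 5′ difference by -0.778 and -0.706 over the 18 arrays, and by -0.220 and 0.132 without that array. The correlation with actin was 0.268 for Per2 and 0.145 for Cry1, and -0.166 and -0.215 without that array. For Per1 and Bhlhe40 it was 0.528 and 0.301, and 0.325 and 0.056 without it.

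Fos, an immediate early gene induced by neuronal activity, was set beside the clock genes. It ran between 7.39 and 11.26 in mutant cocaine arrays, between 9.53 and 11.74 in control cocaine arrays, between 4.65 and 4.81 in mutant saline arrays and between 5.00 and 6.52 in control saline arrays. The comparison of the 10 clock genes with Fos was chosen after seeing the data. Bhlhe40 followed Fos between animals with r = 0.720 (exact permutation, adjusted p = 0.0169 over 10 genes) and rho = 0.816 (adjusted p = 0.0257). It did so with 0.719 in the Roman-numbered and 0.786 in the Arabic-numbered arrays, with 0.752 without the 2 arrays farthest from the median and with 0.794 without mutant cocaine replicate 1, the cocaine array lowest in Fos (exact permutation, adjusted p = 0.0379). For Per1 r was 0.591 and did not pass (exact permutation, adjusted p = 0.0782), at 0.246 in the Roman-numbered and 0.779 in the Arabic-numbered arrays. None of the other 8 genes passed over the 18 arrays, and Per2 and Cry1, the pair that varied together, had -0.201 and -0.289 with Fos. For Nr1d2 r was -0.484 (exact permutation, adjusted p = 0.242), at 0.037 in the Roman-numbered and -0.784 in the Arabic-numbered arrays. Without mutant cocaine replicate 5 r was -0.780 for Nr1d2, 0.759 for Bhlhe40 and 0.673 for Per1.

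The rest of the clock was examined with a list of 32 genes, of which 26 are on the array and 19 were tested. After cocaine 0 rose and 0 fell averaged over genotypes, and the median change of the 19 was -0.005, beside 0.0 over all probe sets. Arntl, the partner of Clock, was at -0.24 ± 0.14 (SE; adjusted p = 0.859 in limma). Nfil3, a repressor that competes with Dbp at D-boxes, was at 0.33 ± 0.13 (0.859), with levels from 3.25 to 4.16, close to the filter level. Tef, a relative of Dbp, was at 0.04 ± 0.04 (0.887), and Bhlhe41, the paralogue of Bhlhe40, lay between 2.17 and 2.26 and was not tested. No gene of the list was called between genotypes after cocaine or saline or in the interaction. Between the series, Roman minus Arabic, 0 of the 19 rose and 3 fell, namely the nuclear receptor Rora at -0.29 ± 0.07 (adjusted p = 0.0257), Tef at -0.16 ± 0.04 (0.0445) and Fbxw11, a subunit of ubiquitin ligases, at -0.15 ± 0.04 (0.0317 in limma). Over all 12674 probe sets this contrast called 322 higher (2.54%) and 459 lower (3.62%).

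Npas2, the relative of Clock that can replace it and is prominent in the forebrain, fell into separate ranges that followed neither treatment nor genotype nor numbering. Its level (1421037_at) lay between 5.88 and 6.33 in 6 arrays and between 7.96 and 9.30 in the other 12, with a gap of 1.63 between the ranges. The lower range held 1 of 6 mutant cocaine, 2 of 6 control cocaine, 1 of 3 mutant saline and 2 of 3 control saline arrays. A second probe set (1421036_at) lay between 2.22 and 2.96 in the same 6 arrays and between 2.97 and 5.21 in the other 12, mostly below the filter level. Within the sets of group and series the spread was 1.34 (SD), and 7 of the 12674 probe sets had a larger one. Averaged over genotypes, cocaine minus saline was 0.32 ± 0.68 (adjusted p = 0.945 in limma).

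Gene lists of acute responses put the clock genes in context. Of 18 immediate early factors, 12 were tested and 8 rose after cocaine averaged over genotypes, with a median of 2.19 over the 12. Of 18 glucocorticoid response genes, 17 are on the array, 14 were tested and 1 rose, Dusp1, a phosphatase that is also an immediate early gene. The median was 0.32 over the 14. Over all probe sets this contrast called 28 of 12674 (0.221%). Within this list Fkbp5 and Sgk1, picked after their values were seen, were at -0.14 ± 0.08 (adjusted p = 0.859) and 0.51 ± 0.13 (0.197 in limma). Per1 is itself a known glucocorticoid target, and whether glucocorticoids had a part in its rise was not tested. Of the marker lists, those for cortical glutamatergic (2 tested), thalamic or septal (3), oligodendrocyte (6), astrocyte (6), microglia (6), endothelial (4) and choroid plexus or ependymal (2) genes had 0 members called in any of the 7 comparisons. The medium spiny neuron list (6 tested) had 1 member lower in the Roman-numbered arrays, and the red blood cell list had none that passed the filter. Over all 12674 probe sets the share called was 6.16% for numbering and between 0.0% and 0.221% for the other comparisons. Lists this short would seldom hold a call at such shares, so these counts do not show whether cell shares were steady.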

How the data were processed

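Total RNA from striatum was labelled with biotin and hybridised to Affymetrix arrays, 18 in all, 1 per mouse. The deposited values are on the log2 scale. Per the submitters' processing notes they come from GCRMA run in R 2.4.1. This method estimates background from the probes' sequences, brings the arrays to the same distribution and gives 1 value per probe set. Values near the floor can be compressed and fold changes there understated, which was not tested here. Genes were named through the platform's annotation, only where a probe set had 1 symbol (11749 of the 12674 tested, with 406 having several and 519 none). Control probe sets (64) and probe sets not above 4 in at least 3 arrays were left out. Limma 3.58.1 (R 4.3.3) was fitted to all tested probe sets with the 4 groups and the numbering series as terms and a variance trend, two-sided moderated tests, and p-values adjusted by Benjamini-Hochberg over all 12674 (threshold 0.05). It had 13 residual degrees of freedom and 3.13 more from moderation, and was tested on simulated data. Array medians lay between 4.98 and 5.19. The number of arrays limits the precision.

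Correlations between animals used deviations from the means of group and series, with exact two-sided permutation within these sets (46656 relabellings). The clock genes, the lists and the tests were chosen with earlier results of these data known. The clock genes were named in full, and of the list of other clock genes those past the threshold and Arntl, Npas2, Bhlhe41, Nfil3 and Tef, with Camk4, Fos and Dusp1 as points of reference and Fkbp5 and Sgk1 named after their values were seen. Promoter sequences come from RefSeq (GRCm38.p6). The alternatives tried are other filters, scalings, spread estimates, blocks, covariates, subsets of the arrays, and each array left out in turn.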

Additional observations from a re-analysis of the deposited data

Results flagged for a closer look

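In mutant cocaine replicate 4, Dbp 1438211_s_at was at 12.7, far below the other 5 mutant cocaine arrays (13.19 to 13.47). This was 1 of 26 checks of a group of 6 arrays for a value far from the others, of which chance alone marks about 1 in 20. The second Dbp probe set, 1418174_at, was also lowest of the mutant cocaine arrays in that animal, at 10.66.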

How the results depend on the processing

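The counts of clock probe sets called moved as follows. Cocaine against saline averaged over genotypes (2 called) gave 1 with a replicate block, with blocks of consecutive animal numbers and with an ordinary linear model, and 1 to 2 with single arrays left out. Per1 was the one lost, with an adjusted p between 0.0028 and 0.0907 over the 34 alternatives, of which 7 ended its call, at a change of 0.77 to 0.94. Bhlhe40 passed in all 34. With the Arabic-numbered arrays alone the count was 3, with the dim Nr1d2 probe set lower (-0.88, adjusted p = 0.0245, and 0.0439 with consecutive-number blocks). In mutant mice (0 called) the count was 1, Bhlhe40, with the strict filter (above 5 in at least 9 arrays), no series term, robust moderation, array weights, arrays centred on their medians, repeated quantile normalization, an actin covariate or a threshold of 0.1, and 0 to 1 with single arrays left out. In control mice (1 called) it was 0 with consecutive-number blocks, with an ordinary linear model, and with the actin covariate without mutant cocaine replicate 5. It was 2 with the Arabic-numbered arrays alone, with or without consecutive-number blocks, and with array weights, and 0 to 2 with single arrays left out. Roman against Arabic numbering (1 called) gave 0 with the strict filter, which drops the dim Nr1d2 probe set. It gave 4 with array weights and 1 to 4 with single arrays left out. With array weights, 1655 probe sets were higher and 1983 lower over all, against 322 and 459 in the main setting. The larger count there was thus not particular to the clock genes. Of the 45 pairs (1 called), 4 passed with consecutive-number blocks, among them Per1 and Nr1d2 (-0.882) and Per1 and Bhlhe40 (0.821), 2 with arrays centred on their medians and 0 with the actin difference regressed out, and 0 to 2 with single arrays left out. Genotype contrasts, the interaction and the correlation with animal number gave 0 under every alternative. Of 3048 values of single probe sets, 13 lost and 25 gained a call, 0 called values changed sign, and 121 uncalled ones did. The replicate block (Per1 adjusted p = 0.0824) changed no other call. Residuals of same-numbered arrays correlated by a mean of 0.044 (-0.234 to 0.307), 7 of 21 pairs exceeded 0.1 and 8 of 18 arrays were nearest to one of their own number, so replicate numbers did not pair the arrays. For consecutive-number blocks the mean was 0.081 (-0.042 for other pairs), with 9 of 21 pairs over 0.1 and 10 of 18 arrays nearest to their own block. The count over all probe sets for averaged cocaine, 28 higher and 0 lower, was 98 and 332 with the Arabic-numbered arrays alone, 95 and 267 without mutant cocaine replicate 5, 60 and 43 with array weights, 64 and 3 without the series term, and 16 and 17 higher with none lower for consecutive-number blocks and for the ordinary linear model. In mutant mice, 6 and 0 in the main setting were 21 and 0 without mutant cocaine replicate 1. For numbering, 322 higher and 459 lower were 1762 and 2021 without mutant cocaine replicate 5. Where a call moved, the cause was not tested. Signal near the floor limits the 3 untested probe sets and the dim one of Nr1d2.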

Other observations

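The genes that vary most like a clock gene between animals were named as a description, over the 18 arrays and 11736 probe sets with 1 symbol. The 5 closest to Per1 were Zbtb21 (r = 0.927), Gm13889 (0.870), Rundc3a (0.865), Ube2o (0.857) and Tor1aip2 (0.849). For Bhlhe40 they were Man2b1 (0.863), Slc39a11 (0.859), Efna3 (0.843), Meg3 (0.814) and P4hb (0.808). The closest to Dbp were Cntd1 (0.912), Tmem191c (0.911), Tmed7 (0.899), Pms2 (0.894) and Xpo7 (0.889), which were between 0.799 and 0.849 without mutant cocaine replicate 5. For Nr1d1 they were Numa1 (0.843), Ipo5 (0.821), Smpd2 (0.807), Gak (0.795) and Ccl6 (0.787). From the 5th to the 95th percentile, the correlations with all probe sets ran from -0.540 to 0.576 for Per1, from -0.460 to 0.463 for Bhlhe40, from -0.662 to 0.623 for Dbp and from -0.366 to 0.400 for Nr1d1, so the 4 genes have backgrounds of different width.

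The animal number, the one label that gives the 12 Arabic-numbered animals an order, was set against the level of each of the 10 genes after subtraction of group means. None passed a two-sided exact permutation test within groups, adjusted over the 10. Dbp was highest, with r = 0.651 and rho = 0.617 (exact permutation p = 0.0532, adjusted p = 0.532), followed by Bhlhe40 with r = 0.523 (adjusted p = 0.675). Without the 2 animals farthest from the middle of the numbers, numbers 1 and 12, r was 0.860 for Dbp and 0.862 for Bhlhe40. For 4 other genes it moved further, to 0.776 for Nr1d1 (0.162 with them), 0.515 for Per1 (-0.033), 0.540 for Per3 (-0.271) and -0.558 for Nr1d2 (0.085). The labels do not say whether the number stands for an order of injection or dissection.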
